A study of Mus musculus with 57 samples.

Results

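The genes Nanog, Gdf3 and Dppa3 lie side by side on mouse chromosome 6, and the binding of 5 transcription factors (TFs) around them was followed by CUT&RUN during induction of a primitive endoderm (PrE) fate. CUT&RUN uses an antibody to direct a nuclease to a DNA-bound protein, and the released fragments are sequenced and called as peaks. The region was defined as all peaks whose summit, the base of highest coverage, lay within 150 kb of the Nanog transcription start site (TSS; mm10, chr6:122707489). It held 589 of the 775358 peaks in 30 peak lists. Summits of all lists that followed each other by at most 500 bp were joined into sites, which gave 90 sites in the region. A group of lists was taken to hold a site when both of its lists had a summit there. By this rule 45 of the 90 sites were held by at least 1 group, and 34 sites rested on a peak in a single list.

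The cells were KH2 mouse embryonic stem (ES) cells with a single-copy transgene from which doxycycline (Dox) induces GATA6. Lists were deposited for GATA6 at 0, 2, 4, 8 and 48 h, for NANOG and SOX2 at 0, 2, 4 and 8 h, and for GATA4 and SOX17 at 24 h, with 2 lists in each of these 15 groups. Cells at 0 h were kept in 2i medium without Dox, cells at 2, 4 and 8 h were in serum medium with Dox at 1 µg/mL, and cells at 24 and 48 h had received Dox for 12 h followed by serum medium without it. A difference between 0 h and any later time point therefore combines the change of medium with the induction of GATA6, which cannot be told apart. A difference between 48 h and the times of 2, 4 and 8 h combines time with the withdrawal of Dox. These cannot be told apart either, and the names of the 48 h lists also carry the word "merged". All groups carry the transgene. CUT&RUN was run in duplicate, and the study states in general that its replicates were independent, but not whether the 2 lists of a group came from separate cultures, so that spread between lists may be technical. The GATA6 lists of 4, 8 and 48 h are assigned here by the time in their file names, which differs from the sample each file is attached to.

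NANOG is a homeodomain TF that maintains the epiblast (Epi) state, and its gene is itself bound by NANOG, SOX2 and OCT4 in ES cells. GDF3 is a secreted ligand of the TGF-β family that is found in pluripotent cells, and DPPA3 (also called STELLA) protects the DNA methylation of the early embryo. GATA6 drives the PrE fate, while GATA4 and SOX17 act in PrE cells at later stages. Enhancers of Nanog have been described in ES cells both a few kilobases upstream of the gene and further away on either side.

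Nanog (chr6:122707489-122714633, plus strand) has its TSS at the centre of the region. The TSS of Dppa3 (plus strand) lies 81.1 kb upstream of it, and that of Gdf3 (minus strand) 97.4 kb upstream. The other protein-coding genes with a TSS in the region are Apobec1, an RNA-editing cytidine deaminase, at 105 kb upstream, Slc2a3, the glucose transporter GLUT3, at 94.2 kb downstream, Foxj2, a forkhead TF, at 112 kb downstream, and C3ar1, the receptor for complement C3a, at 149 kb downstream. Of the 90 sites, 35 were intergenic and 31 lay in introns of Slc2a3 (chr6:122727809-122801640). Introns are counted over the full annotated span of a gene, and its TSS is the outer end of that span. A site called intronic here may therefore lie upstream of a shorter transcript. Another 7 sites touched an untranslated region (UTR) and 4 a coding exon. Within 10 kb of their TSS, Nanog had 8 sites, Dppa3 6 and Gdf3 5.

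**Figure D1:**
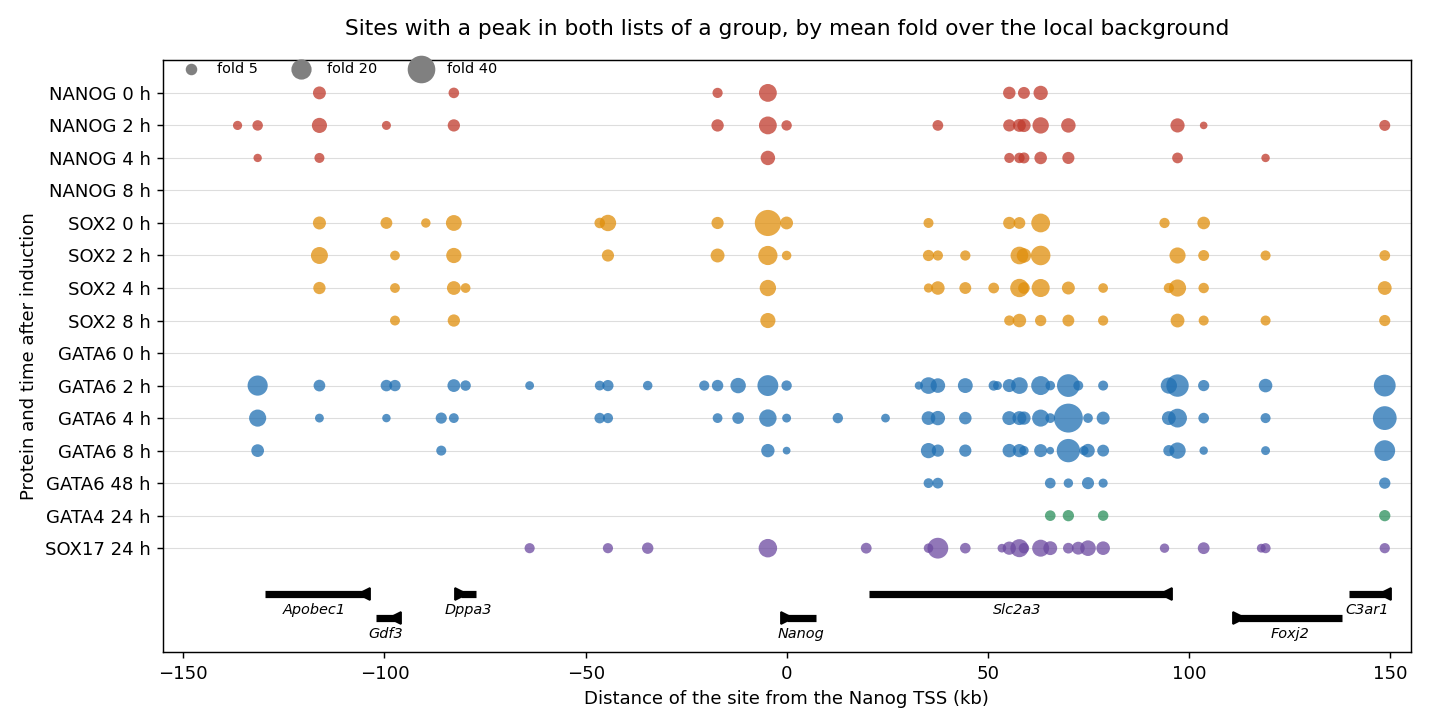
Sites held by each group (rows) by their distance from the Nanog TSS in kb (x axis). The area of a point grows with the mean fold over the local background of both lists, and black bars below show the protein-coding genes with an arrowhead at the TSS. The 7 NANOG sites of 0 h lie on both sides of Nanog, the 7 GATA6 sites of 48 h all lie downstream of it, and no site is held by NANOG at 8 h or by GATA6 at 0 h.

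The DNA under the sites that carry the time course is printed here so that it can be set beside the binding. All sequences are from the plus strand of GRCm38 (the assembly of mm10), 5′ to 3′. The site sequences are 201 bases centred on the summit with the highest −log10 q-value, and the Nanog promoter is the 250 bases before the RefSeq start (chr6:122707239-122707488). Capitals mark matches on either strand to a SOX motif (CATTGT), an OCT motif (ATGCAAA), or a GATA motif, which is GATA preceded by A or T and followed by A or G. The Dppa3 site is chr6:122624625-122624825, the upstream Nanog site chr6:122702676-122702876, and the 3 sites in Slc2a3 introns are chr6:122765188-122765388, chr6:122770471-122770671 and chr6:122777358-122777558.
Nanog promoter: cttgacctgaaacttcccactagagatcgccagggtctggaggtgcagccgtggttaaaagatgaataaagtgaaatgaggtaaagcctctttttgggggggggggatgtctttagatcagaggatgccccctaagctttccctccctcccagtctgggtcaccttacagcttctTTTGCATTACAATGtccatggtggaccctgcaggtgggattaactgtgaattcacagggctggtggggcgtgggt
Dppa3 site, 82.8 kb upstream of Nanog: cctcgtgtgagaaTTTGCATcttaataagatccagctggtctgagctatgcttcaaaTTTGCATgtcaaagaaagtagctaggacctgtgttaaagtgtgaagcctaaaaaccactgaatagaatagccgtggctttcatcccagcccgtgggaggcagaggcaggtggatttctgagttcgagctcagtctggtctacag
Upstream Nanog site, 4.7 kb upstream: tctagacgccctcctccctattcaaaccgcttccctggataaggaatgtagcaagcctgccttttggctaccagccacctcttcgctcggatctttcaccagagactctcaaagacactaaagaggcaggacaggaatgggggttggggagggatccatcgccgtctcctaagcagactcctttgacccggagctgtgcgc
Site 57.8 kb downstream: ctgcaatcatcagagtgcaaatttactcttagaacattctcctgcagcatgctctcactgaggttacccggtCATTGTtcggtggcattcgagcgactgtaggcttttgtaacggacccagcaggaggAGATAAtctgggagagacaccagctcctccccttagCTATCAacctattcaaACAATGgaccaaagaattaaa
Site 63.1 kb downstream: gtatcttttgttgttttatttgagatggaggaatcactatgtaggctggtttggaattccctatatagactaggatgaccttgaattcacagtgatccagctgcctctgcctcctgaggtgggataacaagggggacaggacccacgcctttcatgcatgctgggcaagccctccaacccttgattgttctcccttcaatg
Site 70.0 kb downstream: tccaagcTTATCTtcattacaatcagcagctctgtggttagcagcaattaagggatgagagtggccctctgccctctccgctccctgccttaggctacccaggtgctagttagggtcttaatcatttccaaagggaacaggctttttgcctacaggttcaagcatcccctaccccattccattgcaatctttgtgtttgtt

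The promoter sequence holds an OCT and a SOX match separated by 1 base, which read on the minus strand form the composite CATTGTNATGCAAA. Only 2 of 32851 RefSeq promoter entries held this exact composite, and both were entries of Nanog. The 2 entries overlap and share the same match (chr6:122707414-122707427), so they count 1 place. An exact match is rare anywhere, with 14 of 193339 sites of the genome holding one. The count therefore does not show that the composite is special to Nanog. A SOX match was in 12.6% of the 32851 entries and an OCT match in 4.63%. The entries run from 250 bases before to 50 bases after each start, and Gdf3 and Dppa3 were not among them. The Dppa3 site held 2 OCT matches, against a share of 10.5% of the NANOG 0 h sites of the genome that held any. The site 57.8 kb downstream held 2 GATA and 2 SOX matches, and the site 70.0 kb downstream a single GATA match 88 bp from its summit. No GATA match was found within 100 bp of the summit of the upstream Nanog site or of the site 63.1 kb downstream, although GATA6 peaks were called at both. Both sequences do hold GATAA preceded by G, which the motif used here does not count.

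The first question was where the pluripotency TFs sat before GATA6 was induced. At 0 h NANOG held 7 sites of the region, and SOX2 held 15. Of the 7 NANOG sites 6 were also held by SOX2, and the remaining one, 58.9 kb downstream, had a SOX2 peak in 1 of its lists. Over the genome 78.7% of the NANOG 0 h sites were held by SOX2, so that the count of 6 of 7 lay near the share of all NANOG sites. The 7 sites were an Apobec1 intron 116 kb upstream, the site 1.69 kb before the Dppa3 TSS, 2 intergenic sites 17.2 and 4.71 kb before Nanog, and 3 sites in introns of Slc2a3 at 55.3, 58.9 and 63.1 kb downstream.

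The site 4.71 kb upstream of Nanog was the strongest of these. The NANOG fold there, which is the summit coverage over the local background given by the authors, was 13.9 and 23.5 in the lists of 0 h, 19.8 and 17.6 at 2 h, and 14.9 and 9.16 at 4 h. At 8 h only 1 list had a peak, with a fold of 5.35. The NANOG values of 0 h overlapped those of 2 h and of 4 h, both values of 2 h lay above those of 4 h, and the single value of 8 h lay below all of them. These folds rested on 26 to 81 fragments at the summit from 0 to 4 h and on 12 at 8 h (95% exact Poisson interval 6.2 to 21.0, counting error only).

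SOX2 had its highest fold of the region at the same site. Its values were 40.7 and 41.6 at 0 h, 21.7 and 21.9 at 2 h, 19.2 and 12.0 at 4 h, and 9.66 and 16.9 at 8 h. Both 0 h lists lay above all later lists, and in them the site ranked 66 of 31695 and 74 of 26826 peaks by q-value. The mean log2 fold at 8 h was lower than at 0 h by a difference of -1.69. Over the 8 lists the time points gave an exact permutation p of 0.0381, which became 0.0838 after adjustment over the 11 tests of single sites and did not pass the threshold of 0.05.

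GATA6 appeared at this site with induction. A single list of 0 h had a peak there, with a fold of 7.33 on 9 fragments, which was the only GATA6 peak in the region at that time. The values were 26.7 and 25.2 at 2 h, 14.5 and 21.2 at 4 h, and 8.27 and 12.0 at 8 h, and neither list of 48 h had a peak. The 3 time points did not overlap, with the order of 2, 4 and 8 h running downwards. SOX17 had folds of 20.7 and 19.6 here at 24 h, whereas GATA4 had no peak in either list.

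A like course was seen 63.1 kb downstream, in an intron of Slc2a3. NANOG had folds of 8.66 and 14.8 at 0 h, 20.8 and 10.5 at 2 h, 9.02 and 8.72 at 4 h, and 5.31 in 1 list of 8 h. SOX2 had 21.7 and 19.9 at 0 h, 17.2 and 28 at 2 h, 28.4 and 10.2 at 4 h, and 6.76 and 7.35 at 8 h. Both SOX2 lists of 8 h were below all earlier ones, but no difference between time points was detected with 2 lists each (exact permutation p = 0.21, adjusted p = 0.256). GATA6 had 22.2 and 20.3 at 2 h, 15.5 and 18.6 at 4 h, and 7.69 and 11.5 at 8 h, with no peak at 0 or 48 h. SOX17 was present at 24 h with 15.4 and 18.5, and GATA4 was not called.

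The site 57.8 kb downstream lies between 2 of the NANOG sites and differed from them in the order of events. NANOG was called in only 1 list at 0 h, with a fold of 3.28, and then in both lists at 2 h with 13.7 and 5.13 and at 4 h with 6.56 and 5.31. SOX2 had 11.2 and 4.4 at 0 h, 13.3 and 23.4 at 2 h, 25.5 and 14.2 at 4 h, and 9.89 and 11 at 8 h. The 4 SOX2 values of 2 and 4 h were the highest, although no difference between time points was detected (exact permutation p = 0.19, adjusted p = 0.256). GATA6 had 14.5 and 18.1 at 2 h, 8.71 and 13.5 at 4 h, and 8.6 and 11.1 at 8 h, and SOX17 had 16.1 and 22.3 at 24 h. This site is 1507 bp wide, the widest of the region, and the summits of the SOX2 lists of 0 h did not lie together in it.

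At the Nanog promoter itself NANOG was not called at 0 h. The site 58 bp upstream of the TSS had NANOG folds of 8.15 and 3.5 at 2 h and no NANOG peak in any list of 0, 4 or 8 h. SOX2 had 7.72 and 10.9 at 0 h, 3.91 and 5.6 at 2 h, and 7.56 in 1 list of 4 h. The SOX2 values of 0 h were above those of 2 h. GATA6 had 6.78 and 4.81 at 2 h, 3.77 and 4.32 at 4 h, and 3.03 and 2.78 at 8 h, in an order without overlap, and no peak at 48 h. The local background of the peak caller at this site was 2.28 to 3.51 times that of the genome in the lists with a peak, against 1.1 to 2.39 times at the upstream Nanog site, and a raised background lowers the fold. Another site, 721 bp upstream, rested on a single SOX2 peak of 0 h.

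Around Dppa3 the pluripotency TFs sat just upstream of the gene rather than at its start. At the site 1.69 kb before the TSS NANOG had folds of 5.26 and 6.91 at 0 h, 7.88 and 9 at 2 h, and 6.68 in 1 list of 4 h, with no peak at 8 h. The 2 h values were above those of 0 h. SOX2 was called there in all 8 lists, with 14.8 and 14.3 at 0 h, 9.19 and 17.7 at 2 h, 15 and 6.69 at 4 h, and 6.98 and 9.93 at 8 h. Both SOX2 lists of 0 h lay above both of 8 h. The lists of 2 and 4 h ran from 6.69 to 17.7, past the values of 0 and 8 h at both ends. Over all time points no difference beyond the spread was detected (exact permutation p = 0.629, adjusted p = 0.691). GATA6 had 10.7 and 7.82 at 2 h and 4.15 and 6.1 at 4 h, and was no longer called at 8 or 48 h. Neither SOX17 nor GATA4 had a peak there.

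At the Dppa3 TSS only 2 peaks were called, 1 of SOX2 at 0 h with a fold of 6.27 and 1 of GATA6 at 2 h with 3.35. In an intron of Dppa3, 1.23 kb past the TSS, GATA6 had folds of 7.26 and 4.62 at 2 h and 6.95 in 1 list of 4 h. SOX2 was called there only at 2 h, in 1 list with 4.64, and at 4 h, with 5.21 and 4.91. NANOG had no peak at either position in any list.

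The Gdf3 start site behaved in another way. The site that holds the TSS had no NANOG peak in any list and no SOX2 peak at 0 h. SOX2 was called in both lists of every later time point, with 4.09 and 5.89 at 2 h, 5.29 and 4.97 at 4 h, and 5.2 and 5.3 at 8 h. These folds were low and rested on 5 to 11 fragments. GATA6 had 7.29 and 6.95 at 2 h, and then 3.4 and 3.93 in 1 list each of 4 and 8 h. The site spans 1025 bp, and the SOX2 summits of 4 h lay further inside the gene than those of GATA6 at 2 h. A second site, in an intron of Gdf3 2.12 kb from its TSS and described after its values were seen, had SOX2 peaks in both lists of 0 h, with 7.76 and 7.84. It had 8.37 in 1 list of 2 h, 4.73 in 1 list of 4 h and none at 8 h. NANOG had 3.61 there in 1 list of 0 h and 3.14 and 5.24 at 2 h. GATA6 had 8.24 and 6.46 at 2 h and 3.64 and 3.5 at 4 h, and SOX17 had 5.42 in 1 list.

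**Figure D2:**
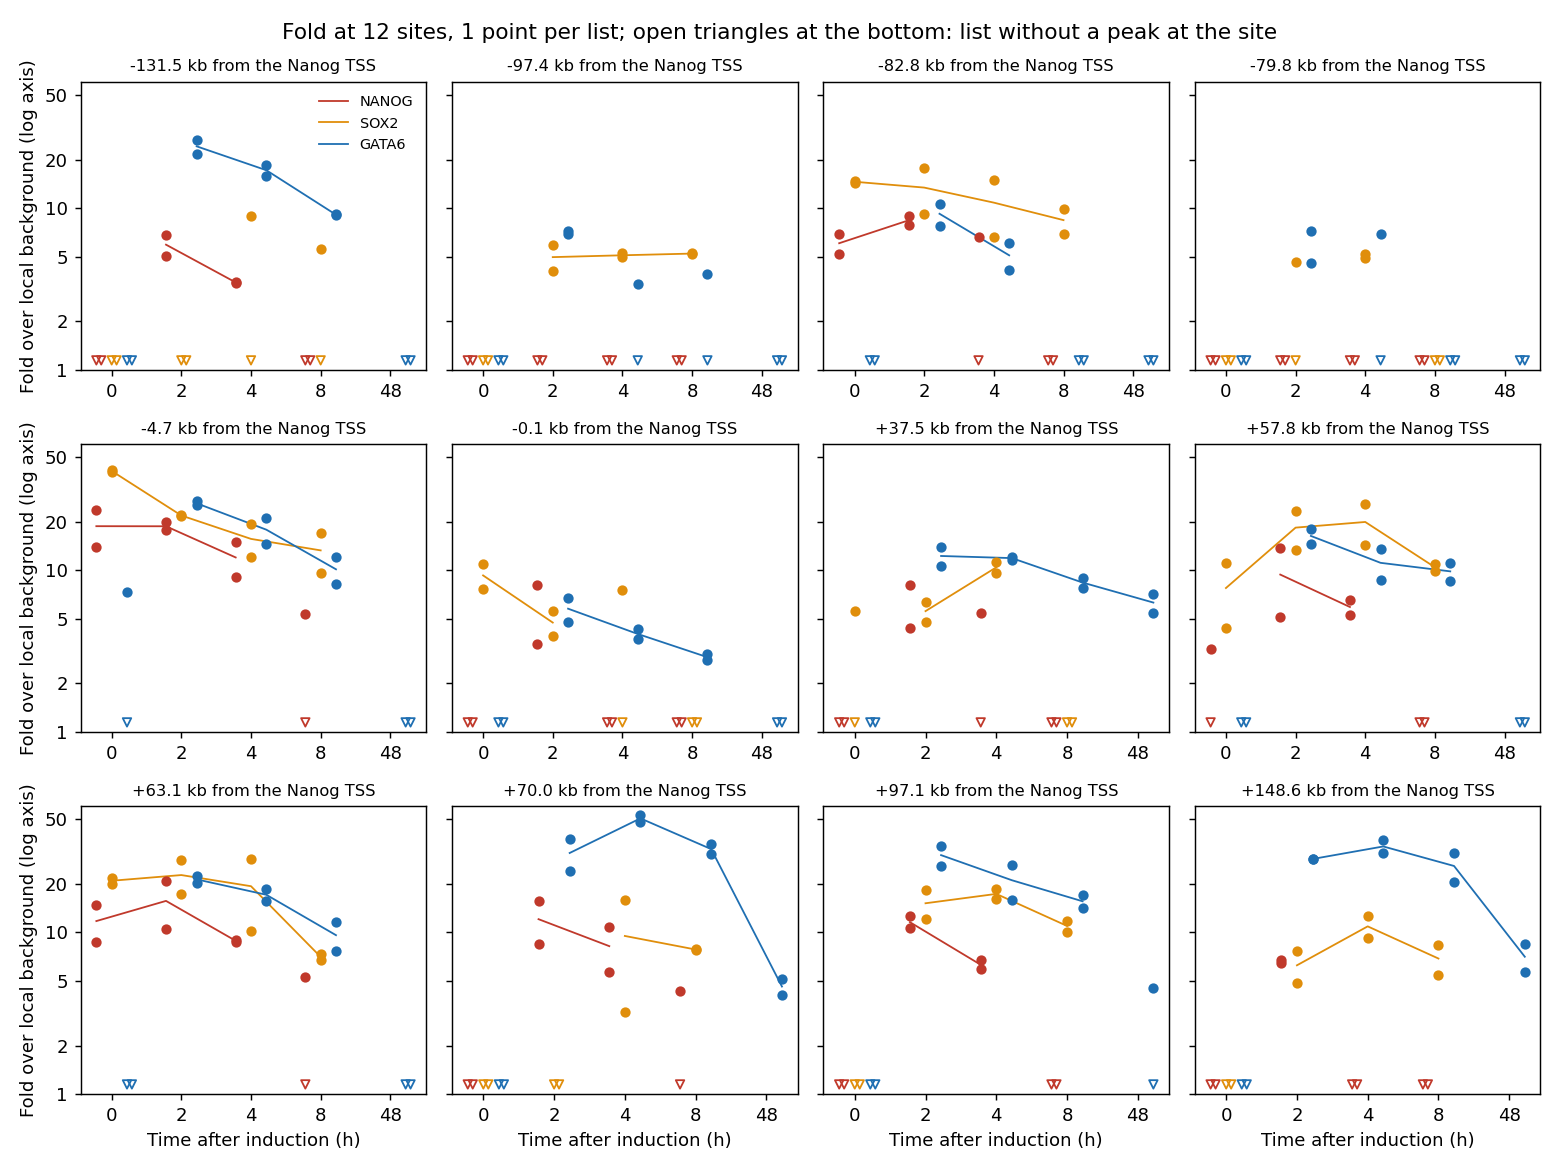
Fold over the local background (y axis, log scale) by time after induction (x axis) at 12 sites (panel titles, distance from the Nanog TSS), with 1 point per list and lines through the means of both lists. Open triangles at the bottom stand for lists without a peak. NANOG and SOX2 points start at 0 h at the sites 4.7 kb upstream and 63.1 kb downstream of the TSS, whereas at the sites 70.0, 97.1 and 149 kb downstream they start at 2 or 4 h, and GATA6 reaches 48.1 and 53.1 at the site 70.0 kb downstream at 4 h.

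The second question was whether GATA6 reached the sites that NANOG held. Of the 7 NANOG 0 h sites, 6 were held by GATA6 at 2 h and all 7 at 4 h, but only 4 were left at 8 h and 0 at 48 h. Of the 7665 NANOG 0 h sites of the genome, the respective shares were 75.4%, 57.9%, 31.2% and 4.11%. With the top 10000 peaks of each list the count at 2 h was 2 of 7. By the times of the samples to which the lists are attached, the counts at 4, 8 and 48 h were 0, 7 and 4. Over the sites with GATA6 peaks the GATA6 fold had medians of 10.5 (6 sites), 9.32 (7 sites) and 9 (4 sites) at 2, 4 and 8 h. The sites behind these medians differ, so that they do not follow the same sites over time. The only GATA6 peak of 48 h at any of the 7 sites was in 1 list, 55.3 kb downstream, with a fold of 5.63.

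NANOG itself was kept at all 7 sites at 2 h, at 5 of them at 4 h and at none (0 of 7) at 8 h. In the genome NANOG was kept at 75.9%, 35.7% and 3.44% of its 0 h sites at these times. The absence of kept NANOG sites at 8 h was thus near the genome share. SOX2 was kept at 10, 7 and 6 of its 15 sites at 2, 4 and 8 h, against 51.4%, 48% and 21.1% in the genome. At 24 h SOX17 held 4 of the 7 NANOG 0 h sites, namely those 4.71 kb upstream and 55.3, 58.9 and 63.1 kb downstream, while 31.2% of such sites held SOX17 genome-wide. GATA4 held none of the 7, against 4.42%, and had no peak at any of them in either list.

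GATA6 held 33 sites of the region at 2 h, of which 24, 17 and 6 were kept at 4, 8 and 48 h. The genome shares were 62.8%, 37.2% and 5.64%. If the lists are instead timed by the sample they are attached to, the count at 48 h is 17 in place of 6. The 33 sites became 55 when only the first list of 2 h was used. NANOG had not held 27 of the 33 sites at 0 h, nor 39733 of the 45516 GATA6 2 h sites of the genome. Most GATA6 2 h sites thus lacked NANOG in both. All 6 sites kept to 48 h were among the 27. Over the genome the split was small, since 5.24% of the GATA6 2 h sites with NANOG at 0 h and 5.7% of those without it were held at 48 h.

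**Figure D3:**
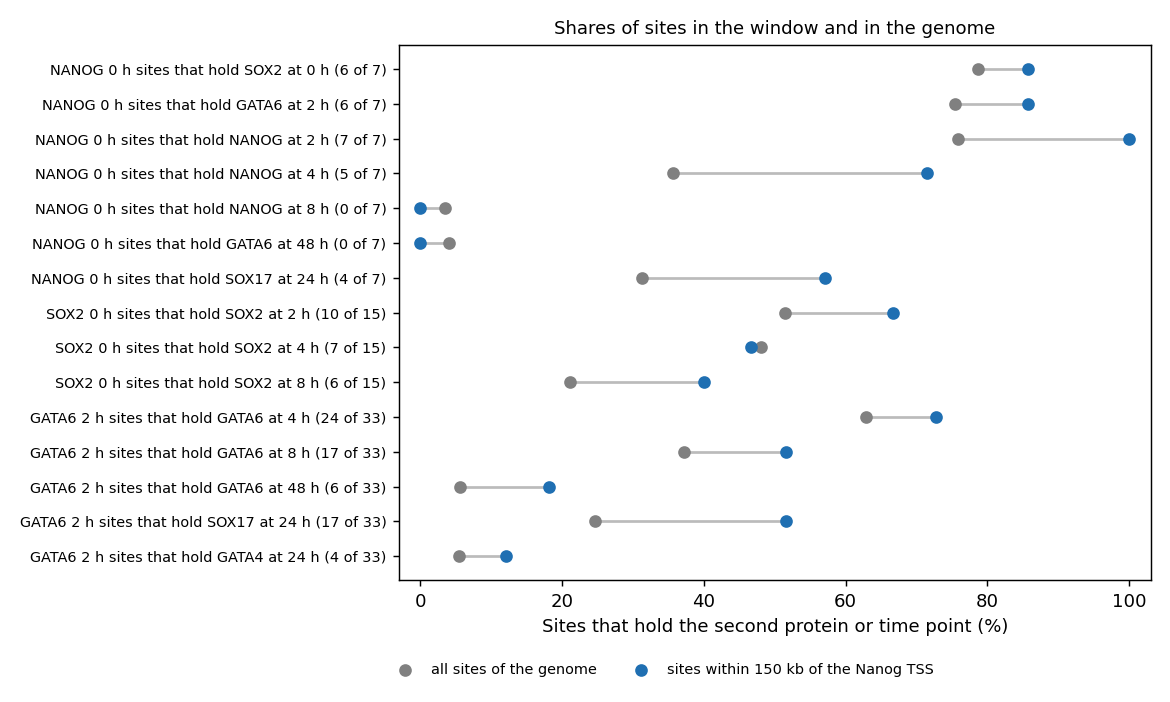
Share of sites in percent (x axis) that hold a second protein or time point, for the sites within 150 kb of the Nanog TSS (blue, counts in brackets) and for all sites of the genome (grey). The shares of NANOG 0 h sites that hold NANOG at 8 h or GATA6 at 48 h are 0 in the region and 3.44% and 4.11% in the genome.

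The 3 sites of the region with the highest GATA6 folds were not held by NANOG or SOX2 before induction. This was so for 20 of the 33 GATA6 2 h sites of the region and for 72.7% of those of the genome. The upstream Nanog site, held by both at 0 h, came next, with GATA6 folds of 26.7 and 25.2 at 2 h. The first of the 3 sites lies 70.0 kb downstream of Nanog, in an intron of Slc2a3. GATA6 folds were 37.9 and 23.9 at 2 h, 48.1 and 53.1 at 4 h, 30.4 and 35 at 8 h, and 4.1 and 5.16 at 48 h. The values of 48 h lay far below all others, and those of 4 h above all others. By q-value this peak ranked 69 of 47894 and 103 of 54281 at 4 h, with 169 and 181 fragments at the summit. The exact permutation p over the 8 lists from 2 to 48 h was 0.0286, with an adjusted p of 0.0838. NANOG was called there only after induction, with folds of 15.7 and 8.47 at 2 h, 10.7 and 5.69 at 4 h, and 4.35 in 1 list of 8 h. SOX2 followed at 4 h with 15.8 and 3.2 and at 8 h with 7.86 and 7.81. GATA4 had 7.04 and 7.02 at 24 h and SOX17 6.36 and 6.12.

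The second lies at the end of the region, in a UTR of C3ar1 71 bp from its TSS. GATA6 folds were 28.5 and 28.2 at 2 h, 37.0 and 30.9 at 4 h, 20.5 and 30.9 at 8 h, and 5.72 and 8.42 at 48 h (exact permutation p = 0.0762, adjusted p = 0.12). NANOG had 6.48 and 6.75 at 2 h and no peak in any other list. SOX2 had 4.84 and 7.68 at 2 h, 12.6 and 9.22 at 4 h, and 5.43 and 8.35 at 8 h, but no peak at 0 h. GATA4 was called with 7.82 and 6.2, and SOX17 with 5.37 and 5.88.

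The third lies 97.1 kb downstream of Nanog and 2948 bp upstream of the Slc2a3 TSS. GATA6 folds were 34.2 and 25.8 at 2 h, 15.9 and 26.1 at 4 h, 17 and 14.1 at 8 h, and 4.51 in 1 list of 48 h. NANOG had 12.5 and 10.6 at 2 h and 5.9 and 6.72 at 4 h, with the values of 2 h above those of 4 h. SOX2 had 12.1 and 18.2 at 2 h, 18.5 and 16.1 at 4 h, and 10.1 and 11.8 at 8 h. No list of SOX17 or GATA4 had a peak there, and none of NANOG or SOX2 at 0 h. Another such site, 132 kb upstream of Nanog, had GATA6 folds of 26.5 and 21.8 at 2 h, 15.9 and 18.5 at 4 h, and 9.17 and 9.09 at 8 h. NANOG was called there with 6.83 and 5.09 at 2 h and 3.45 and 3.52 at 4 h.

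Most sites that NANOG held at 2 h but not at 0 h were GATA6 sites, here as in the genome. NANOG held 17 sites at 2 h, of which 10 were not held at 0 h, and 9 of these 10 were held by GATA6 at 2 h. The genome share was 83.6%. For the sites that NANOG already held at 0 h the count was 6 of 7, against 75.4% in the genome. Among the 10 sites, those 57.8 kb downstream and in the Gdf3 intron had a NANOG peak in 1 list of 0 h. The folds of these peaks were 3.28 and 3.61. Seen from GATA6, 9 of the 27 sites without NANOG at 0 h held NANOG at 2 h, and 5 and 0 did so at 4 and 8 h, against 28.6%, 10.2% and 0.523% in the genome. For 20 of the 33 GATA6 sites of 2 h, neither NANOG nor SOX2 held the site at 0 h, against 72.7% in the genome. Both lists of SOX2 had a peak at 6, 10 and 6 of these 20 sites at 2, 4 and 8 h, against 20.4%, 24.6% and 9.34% of such sites in the genome.

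At 48 h GATA6 held 7 sites, all of them downstream of Nanog. They were the sites 35.2, 37.5, 65.5, 70.0, 74.8, 78.6 and 149 kb from its TSS, the first 6 of which lie in introns or a UTR of Slc2a3. All 7 were held by SOX17 at 24 h and 4 by GATA4, against 71.8% and 39.8% of the GATA6 48 h sites of the genome. The 4 sites held by GATA4 were the only ones it held in the region. Of the 7 sites 6 had been held by GATA6 at 2 h, compared with 60.7% genome-wide, and the exception was the site 74.8 kb downstream, described here after its values were seen. There GATA6 had no peak at 2 h, and folds of 3.11 and 6.8 at 4 h, 9.54 and 11.3 at 8 h, and 9.24 and 7.14 at 48 h. SOX17 had 13 and 15.4 at 24 h at this site, and NANOG none.

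GATA6 folds at 48 h were low throughout, from 4.1 to 9.24 with a median of 5.64 over the 7 sites. The median was 14.7 at 2 h, over the 6 sites with a peak, and 11.2 at 4 h. Tests over the lists from 2 to 48 h gave adjusted p-values from 0.0838 to 0.12 at the 6 sites called in all 8 lists. They set cells in Dox at 2, 4 and 8 h beside cells after its withdrawal at 48 h. The mean log2 fold at 48 h was lower than at 2 h at 5 of these 6 sites. At the site 65.5 kb downstream, described after its values were seen, it was higher by 0.36, with folds of 5.4 and 4.29 at 2 h, 4.21 and 5.9 at 4 h, 2.09 and 3.35 at 8 h, and 6.43 and 5.97 at 48 h. Over the background of the whole genome it was not higher at 48 h, with a difference of -0.0596, and the local background there was 4.76 to 6.03 times that of the genome at 2 h and 3.86 to 4.11 times at 48 h. Over all 11 tests of SOX2 and GATA6 folds, 6 had an unadjusted p of at most 0.05 and 0 an adjusted p of at most 0.05, where the smallest p that 8 lists allow is 0.00952. No site had a NANOG peak in all 8 NANOG lists. Over 0, 2 and 4 h alone, 5 sites had a peak in all 6 lists, and exact permutation p-values were 0.2 to 0.667, where 6 lists allow none below 0.0667.

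SOX17 held 23 sites at 24 h, with its highest folds, 25.9 and 25.6, 37.5 kb downstream of Nanog. At that site, in an intron of Slc2a3, GATA6 had 13.9 and 10.6 at 2 h, 11.7 and 12.1 at 4 h, 7.79 and 9.02 at 8 h, and 7.19 and 5.46 at 48 h, so that its lists of 2 and 4 h lay above those of 8 and 48 h. NANOG had 8.17 and 4.42 there at 2 h. SOX2 had 5.63 in 1 list of 0 h, 4.78 and 6.41 at 2 h, and 9.57 and 11.3 at 4 h. Of the 23 SOX17 sites 17 had been held by GATA6 at 2 h and 8 by SOX2 at 0 h, against 57.5% and 31.9% in the genome. Seen from GATA6, 17 of 33 sites of 2 h held SOX17 at 24 h and 4 held GATA4, against 24.7% and 5.43%.

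The other 33 held sites had a highest group mean fold of 3.39 to 16.9 per site. The number of peaks in the region changed over time for NANOG and for GATA6, as did the length of their whole lists. NANOG lists had 8 and 10 peaks at 0 h, 30 and 18 at 2 h, 11 and 13 at 4 h, and 2 and 1 at 8 h. No 2 time points overlapped, with the most peaks at 2 h and the fewest at 8 h (exact permutation test over 8 lists, p = 0.00952, the smallest possible, adjusted p = 0.0143). GATA6 lists had 0 and 1 peaks at 0 h, 58 and 39 at 2 h, 37 and 45 at 4 h, 25 and 27 at 8 h, and 7 and 10 at 48 h (exact permutation p = 0.00212, adjusted p = 0.00635). Only the GATA6 lists of 2 and 4 h overlapped. This test includes the lists of uninduced cells at 0 h, whose low GATA6 numbers were set by the design. SOX2 lists had 19 and 20 peaks at 0 h, 19 and 33 at 2 h, 31 and 21 at 4 h, and 16 and 14 at 8 h. For SOX2 no difference between time points was detected (exact permutation p = 0.2, adjusted p = 0.2). GATA4 had 5 and 6 peaks and SOX17 31 and 32.

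These numbers moved with the length of the whole lists. Expressed as a share of each list, the region held 0.0363% to 0.0895% of the NANOG peaks, and no difference between time points was detected (exact permutation test, adjusted p = 0.143). For GATA6 the same test gave an adjusted p of 0.708 with the 0 h lists included. Those lists held 86 and 882 peaks in all, with shares of 0% and 0.113%. After induction the GATA6 share was 0.0731% and 0.0622% at 2 h and 0.0773% and 0.0829% at 4 h. It was 0.0872% and 0.0893% at 8 h, and 0.118% and 0.102% at 48 h. The shares from 2 to 48 h thus rose without overlap, but were not tested without the 0 h lists. The SOX2 share was 0.0599% and 0.0746% at 0 h and 0.114% and 0.121% at 8 h, the reverse of the order by number. With the replicate number as a block, pairing lists of the same number, the adjusted p for NANOG was 0.0625. Without the 0 h lists, which were shallow and came from uninduced cells, the adjusted p for the number of GATA6 peaks was 0.0286.

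**Figure D4:**
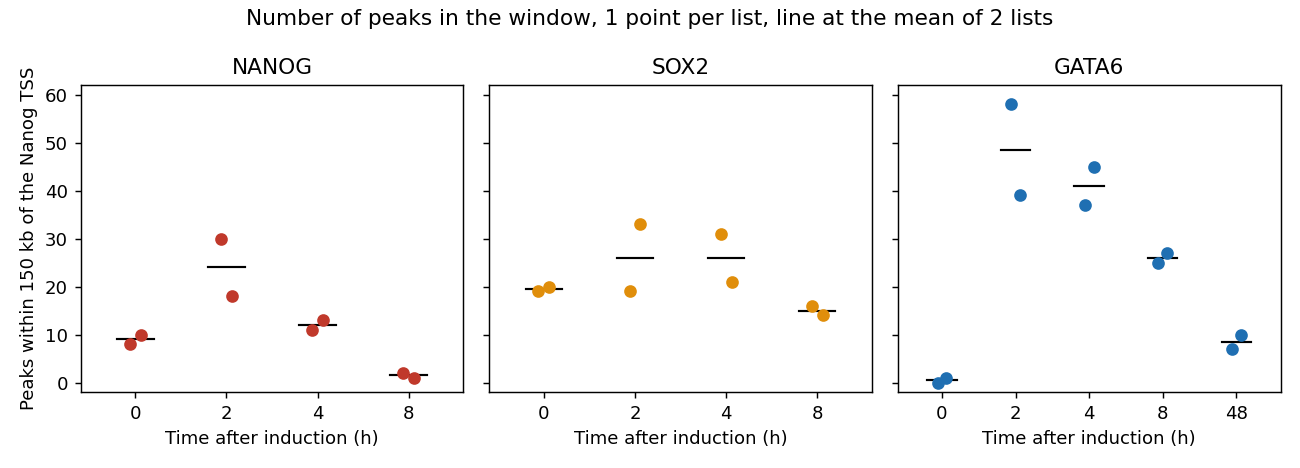
Number of peaks within 150 kb of the Nanog TSS (y axis) by time after induction (x axis) for NANOG, SOX2 and GATA6, with 1 point per list and a line at the mean of 2 lists. NANOG lists lie at 18 and 30 peaks at 2 h and at 1 and 2 at 8 h, while GATA6 lists go from 0 and 1 at 0 h to 58 and 39 at 2 h.

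The number of sites in the region was compared with that around other genes. Windows of the same size were taken around the TSS of 21938 protein-coding genes, where windows of neighbouring genes share sites. At least 7 NANOG 0 h sites were found in 140 of them, at least 33 GATA6 2 h sites in 94, at least 23 SOX17 sites in 35 and at least 7 GATA6 48 h sites in 58. The medians were 1, 7, 3 and 0 sites. At least 15 SOX2 0 h sites were found in 108 windows and at least 4 GATA4 sites in 423, while NANOG held no site of the region at 8 h. Among 12 other genes of the pluripotency network, namely Pou5f1, Sox2, Esrrb, Klf2, Klf4, Klf5, Tfcp2l1, Zfp42, Prdm14, Nr5a2, Sall4 and Tdgf1, no window held more NANOG 0 h sites (1 to 7) or GATA6 sites at 2 h (7 to 29) or 48 h (0 to 5) than that of Nanog. Sox2 also had 7 NANOG 0 h sites, Sall4 also had 23 SOX17 sites and Klf4 also had 4 GATA4 sites. At 8 h, 4 of the 12 windows held a NANOG site, which that of Nanog did not.

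The letters under the sites were compared with the genome. None of the 7 NANOG 0 h sites had a GATA match within 100 bp of its summit, compared with 34.5% of the NANOG 0 h sites of the genome. Among the 27 GATA6 2 h sites without NANOG at 0 h 13 had a match (genome, 55.7%), and among the 7 GATA6 48 h sites 5 had one (genome, 71.7%). Within 250 bp of the summit 2 of 7, 24 of 27 and 7 of 7 sites held a match, with 64.8%, 81.4% and 94.3% in the genome. The upstream Nanog site and the site 63.1 kb downstream, whose sequences are printed above, are among the NANOG 0 h sites without a match within 100 bp.

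The lists differed in depth. The background coverage that the caller used for the whole genome, which grows with depth, was 0.865 to 1.31 fragments in NANOG lists, 0.928 to 1.34 in GATA6 lists after induction, 1.23 and 1.55 for SOX17, and only 0.29 to 0.692 for SOX2 and 0.287 and 0.315 for GATA6 at 0 h. The fewest fragments at the summit of a peak in the region were 4 for SOX2, 7 for NANOG and GATA6 and 8 for SOX17. The NANOG lists of 8 h, which had the fewest NANOG peaks, were about as deep as the other NANOG lists. A site without a peak was not detected in its list, which does not show that the protein was absent.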

How the data were processed

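CUT&RUN libraries of KH2 cells were processed by the authors, who aligned reads to mm10 with Bowtie2, used SAMtools and Picard without removing duplicates, kept short fragments, removed blacklisted regions and called narrow peaks with MACS2 in each replicate against a control antibody. The deposited peak lists give for each peak the fold over the local background (a ratio of summit coverage), −log10 p-values and −log10 q-values, and the summit. The deposited score column was not used. The 30 lists were analysed, and the other 27 of 57 samples were not analysed here. The filter behind the GATA4 lists and the meaning of "merged" in the names of the SOX17 and GATA6 48 h lists are not given in the sources used here. For 6 GATA6 lists the time in the name differed from that of the sample they are attached to, and the name was used.

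Fragments at a summit were recovered from the fold and the p-value of each peak, to within 0.001 of the deposited −log10 p, with 95% exact Poisson intervals that cover counting error only. They are not given for GATA4. Peak numbers, as log2(number + 1), and log2 folds of sites with a peak in every list were compared between time points by two-sided exact permutation tests of F, with Benjamini-Hochberg adjustment over 3 proteins and over 11 sites, respectively. With 2 lists per group, p-values measure only the spread between these lists. Percentages of sites of the genome stand beside counts as background. The sites described were the 8 with the highest mean fold in any group and those within 2 kb of the TSS of Nanog, Gdf3 or Dppa3, and others are marked or given as sets. The region, genes and lists were chosen with earlier results of these data known. Alternatives were a gap of 250 or 1000 bp, a −log10 q of at least 5, the top 10000 peaks of each list, peaks in either list, a window of 100 kb, the share of the list, the number without log, −log10 q in place of fold, the replicate number as a block, each list left out, and the attached time of the GATA6 lists. Leaving out the 0 h GATA6 lists, coverage over the genome background, NANOG folds over 0 to 4 h and the direction of peak numbers under other counts were added after seeing the data. Python 3.11.15, NumPy 2.4.6, pandas 2.3.3, SciPy 1.17.1 and pysam 0.24.0 were used, and scripts were tested on simulated data.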

Additional observations from a re-analysis of the deposited data

Results flagged for a closer look

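The number of peaks within 150 kb of the Nanog TSS moved in opposite directions between 0 and 8 h for different proteins in all lists. The difference of mean log2(number + 1), 8 h minus 0 h, was -2.02 for NANOG and 4.25 for GATA6. For SOX2 it was -0.36, against the same 4.25 for GATA6, but the SOX2 difference was 0.17 with the top 10000 peaks of each list and 0.81 as log2 of the share of the list. The paper states that ES cells in culture do not express GATA6. Cells at 0 h had not received Dox, so the direction of the GATA6 change from 0 to 8 h was set by the design. The opposite direction of GATA6 is therefore not a finding about this region. The difference between proteins was not tested, and the part played by the low background coverage of the GATA6 lists of 0 h was not tested.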

How the results depend on the processing

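The direction turned in 4 cases: SOX2 peaks, 8 h against 0 h, with the top 10000 peaks (0.17, log2) and by share of the list (0.81), GATA6 peaks, 48 h against 2 h, by share (0.70), and the GATA6 fold 65.5 kb downstream, 48 h against 2 h, over the genome background (-0.0596). The adjusted p of the NANOG peak number over time was 0.0762 with the top 10000 peaks, 0.143 by share of the list and 0.0625 with the replicate number as a block, and 0.0143 to 0.0429 with 1 list left out. For SOX2 it was 0.0429 with the top 10000 peaks, 0.333 with the replicate block and 0.124 to 0.495 with 1 list left out. For GATA6 it was 0.708 by share with the 0 h lists included, 0.05 with the replicate block and 0.00317 to 0.0143 with 1 list left out. Lists of different time points are linked only by their replicate number: deviations correlated between time points by -0.162 to 0.145 for NANOG, -0.0909 to 0.0675 for SOX2 and -0.0329 to 0.0024 for GATA6. NANOG held 11 sites at 0 h with either list and 8 to 10 with 1 list left out. GATA6 at 2 h was at 2 of the 7 NANOG 0 h sites with the top 10000 peaks, and at 6 to 9 with 1 list left out. GATA6 held 9 sites at 2 h with the top 10000 peaks, 59 with either list and 37 to 55 with 1 list left out. GATA6 2 h sites held at 48 h numbered 3 with the top 10000 peaks, 17 by the attached times and 6 to 9 with 1 list left out. NANOG 0 h sites held at 8 h numbered 2 with either list, and 1 without NANOG 8 h replicate 1 or 2 (0 to 1 over all). SOX2 0 h sites held at 8 h numbered 3 with a −log10 q of at least 5, and 6 to 7 with 1 list left out. With the replicate block 0 of 11 site folds passed, but the block allows no p below 0.0417 for 4 time points and says nothing of their stability. The cause of these changes was not tested. Depth limits the absence of peaks, most of all for SOX2 and for GATA6 at 0 h.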
